A study of Mus musculus with 10 samples.

Results

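The genes described here encode the constitutive proteasome, the complex that breaks down proteins marked with ubiquitin. They were taken from a comparison of cardiomyocytes, the contracting cells of the heart, that received dnMKL1 with those that received GFP alone. Members were the genes whose symbol is Psm followed by a letter from a to g and a digit, without the immunoproteasome subunits Psmb8, Psmb9 and Psmb10 and without genes at a base mean of 0. This rule gave 46 of the 17371 genes with a base mean above 0, among 23337 listed. The gene Psmc3ip was caught by its symbol alone. It encodes a factor of meiotic recombination, so the classes held the other 45 genes.

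The proteasome consists of a barrel-shaped core particle, in which proteins are cut, and a regulatory particle at its end, which recognises, unfolds and feeds in the substrate. The regulatory particle is divided into a base with ATPases and a lid that removes ubiquitin. Activators can dock on the core in place of the regulatory particle, and assembly chaperones bind unfinished particles without being part of the finished complex. In heart muscle the proteasome turns over sarcomere and signalling proteins, and its genes are expressed in nearly all cells. Of the 45 genes, 16 belonged to the core, 17 to the regulatory particle, 4 were activators, 1 was an inhibitor and 7 were assembly genes.

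Both groups were wild-type mice injected on postnatal day 1 with 5e+08 viral genomes of an AAV9 vector per gram of body weight, and cells were collected on postnatal day 14 by collagenase perfusion and fluorescence-activated sorting. The viruses were AAV9-cTNT-dnMKL1-GFP and AAV9-cTNT-GFP, in which the promoter of cardiac troponin T (cTNT) limits expression largely to cardiomyocytes. MKL1 is a coactivator of serum response factor (SRF), and the dnMKL1 form is dominant negative. Each group had 5 biological replicates, and the labels do not say whether animals were pooled.

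All fold changes, SEs and p-values without total-count scaling come from the authors' deposited table, which compares the groups gene by gene. It gives the mean over all libraries (the base mean, in counts divided by the authors' size factors), the log2 fold change of dnMKL1 against GFP with its standard error (SE), and a Benjamini-Hochberg adjusted Wald p-value. Values of single libraries are not used here, so that each group is given by the mean that the base mean and the fold change imply, and replicate error by the SE. A gene was called when its adjusted p-value was under 0.05. Estimated library totals ran from 8803030 to 17123600 counts with GFP and from 8835140 to 17228600 with dnMKL1. Mkl1, whose sequence the dnMKL1 virus supplies, had a log2 fold change of 9.80 (SE 0.15). All 8 cardiomyocyte markers were abundant, with implied means that summed to 1433100 (GFP) and 774005 (dnMKL1) normalized counts, and 6 of 8 were called lower. Of 6 fibroblast markers 3 were called higher (summed 3188 and 4413), of 6 mural markers 2 higher and 1 lower (11745 and 7919), and of 6 endothelial markers 0 by the Wald test (0 at an unadjusted p-value under 0.05; 2239 and 2294). Most of the mural sum came from Acta2 (10454 and 4999), the mural marker called lower, and the other 5 had positive fold changes. Of 5 macrophage markers with values 1 was called higher (134 and 120), and no listed marker with a value was at 0. The part of other cells in the proteasome values was not tested, and in sorted bulk cells fewer cells of a type cannot be told apart from less RNA per cell.

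The promoters of proteasome genes are shown first, since genes of 1 complex are known to share regulatory elements. The best known is the antioxidant response element, bound by the factors encoded by Nfe2l1 and Nfe2l2 together with small MAF proteins. When proteasomes are blocked, Nfe2l1 is the factor that raises their genes. RefSeq promoter windows on GRCm38.p6 (250 bases before to 50 after the gene's start) were at hand for 37 of the 45 genes. The letters TGACNNNGC on either strand were found in 6 of these 37 genes (16.2%) and in 12.4% of all 32851 promoter windows. A gene was counted once if any of its windows held a match, and binding at these letters was not tested. The stretches around these 6 sites follow, in the direction of the gene, with the site in capitals. They lie at chr14:54618018-54618058 on the minus strand (Psmb5), and on the plus strand at chr11:70525316-70525356 (Psmb6), chr14:45329581-45329621 (Psmc6), chr11:107479278-107479318 (Psmd12), chr5:123228143-123228183 (Psmd9) and chr11:30771747-30771776 (Psme4).
Psmb5: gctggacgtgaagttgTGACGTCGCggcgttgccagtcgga
Psmb6: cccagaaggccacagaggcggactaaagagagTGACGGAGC
Psmc6: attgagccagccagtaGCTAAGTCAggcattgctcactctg
Psmd12: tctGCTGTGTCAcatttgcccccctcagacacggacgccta
Psmd9: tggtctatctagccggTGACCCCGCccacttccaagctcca
Psme4: gaacctcccggcgctgcggctGCAGCGTCA

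These sites began at positions -47 (Psmb5), -9 (Psmb6), -227 (Psmc6), -247 (Psmd12), -31 (Psmd9) and -7 (Psme4), counted from the gene's first base as 1, with the base before it as -1. The sites of Psmb5, Psmb6 and Psmd9 read forward, and those of Psmc6, Psmd12 and Psme4 lie on the other strand. The 6 genes cover a catalytic pair, an ATPase, a lid subunit, a base chaperone and an activator. Their log2 fold changes ran from -0.39 for Psmd12 to 0.24 for Psmd9, with a median of -0.21, beside -0.23 for the 31 genes with a window and no such match. The site of Psmd9 overlapped a match to the GC box. GENCODE places the gene starts of Psmd9 and Psme4 before these stretches, so that the sites of both lie inside the GENCODE genes.

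Other letters were also common. The GC box GGGCGG, read by Sp1-type factors, was found on either strand in 22 of the 37 genes (59.5%) and in 35.7% of all promoter windows. The CCAAT box, read by NF-Y, was found in 13 genes (35.1%), beside 37.4% of all windows. Median log2 fold changes were -0.23 with and -0.20 without a GC box, and -0.23 with and -0.22 without CCAAT. Members with and without each motif thus had nearly the same median change. The CArG box, the site of SRF, was found in 1.63% of all promoter windows and in 1 gene, Psma6, at chr12:55384065-55384105 on the plus strand. It began at position -141 and overlapped a CCAAT match. The stretch is given because SRF is the partner of MKL1.
Psma6: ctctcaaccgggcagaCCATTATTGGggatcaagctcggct

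Core subunits were lower in the dnMKL1 group by a small amount with the authors' size factors, and their median turned to 0.056 when both groups were scaled to the same total (below). Of 15 core genes with an adjusted p-value, 11 were called lower and 0 higher by the Wald test, with 11 at an unadjusted p-value under 0.05, and the median log2 fold change over 16 genes was -0.23. As background, among all 14056 genes tested, 17.4% were called lower and 16.6% higher, and the median was 0.021. Summed over the core, the implied mean went from 25705 normalized counts with GFP to 21411 with dnMKL1, or -0.26 on the log2 scale.

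The outer rings of the core are built of alpha subunits, which form the gate through which substrates enter. Psma1 had implied means of 3272 normalized counts with GFP and 2532 with dnMKL1, a log2 fold change of -0.37 (SE 0.07, adjusted p = 1.5e-06), or 22.6% less. Psma7 fell from 2195 to 1744 (log2 fold change -0.33, SE 0.09, adjusted p = 0.0014). Psma3 fell from 1142 to 946 (-0.27, SE 0.08, adjusted p = 0.0029) and Psma4 from 1548 to 1320 (-0.23, SE 0.07, adjusted p = 0.0048). Psma6, the gene with the CArG match, and Psma5 were also called, at -0.23 and -0.20. Psma2 was not called: its log2 fold change was -0.042 with a 95% interval from -0.19 to 0.10, which leaves out the estimates of the other 6 ubiquitous alpha genes. Psma8, a testis form related to Psma7, was near the detection limit at a base mean of 13.3 and had an interval from -0.32 to 1.51.

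The inner rings hold the beta subunits, and the products of Psmb5, Psmb6 and Psmb7 are the ones that cut peptide bonds. The trypsin-like subunit Psmb7 fell from 1823 to 1434 normalized counts (log2 fold change -0.35, SE 0.09, adjusted p = 7.9e-04). The caspase-like subunit Psmb6 fell from 2727 to 2319 (-0.23, SE 0.09, adjusted p = 0.041), a call lost, like that of Psmc1, with adjustment over all p-values. The chymotrypsin-like subunit Psmb5, the main target of proteasome inhibitor drugs, had implied means of 855 and 754 and a log2 fold change of -0.18 (SE 0.16, adjusted p = 0.43). Its 95% interval, from -0.50 to 0.13, includes the values of Psmb6 and Psmb7, so the catalytic subunits could not be told apart. The structural subunit Psmb2 had the largest change of the called core genes, from 2287 to 1640 normalized counts (-0.48, SE 0.09, adjusted p = 2.4e-06), or 28.3% less. Psmb3 fell from 1175 to 938 (-0.33, SE 0.10, adjusted p = 0.0041) and Psmb4 from 1354 to 1113 (-0.28, SE 0.09, adjusted p = 0.0069). Both are structural subunits as well. Psmb1 was not called (-0.096, interval -0.24 to 0.044). Psmb11, a subunit of thymus epithelium, had almost no reads and no adjusted p-value.

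**Figure D1:**
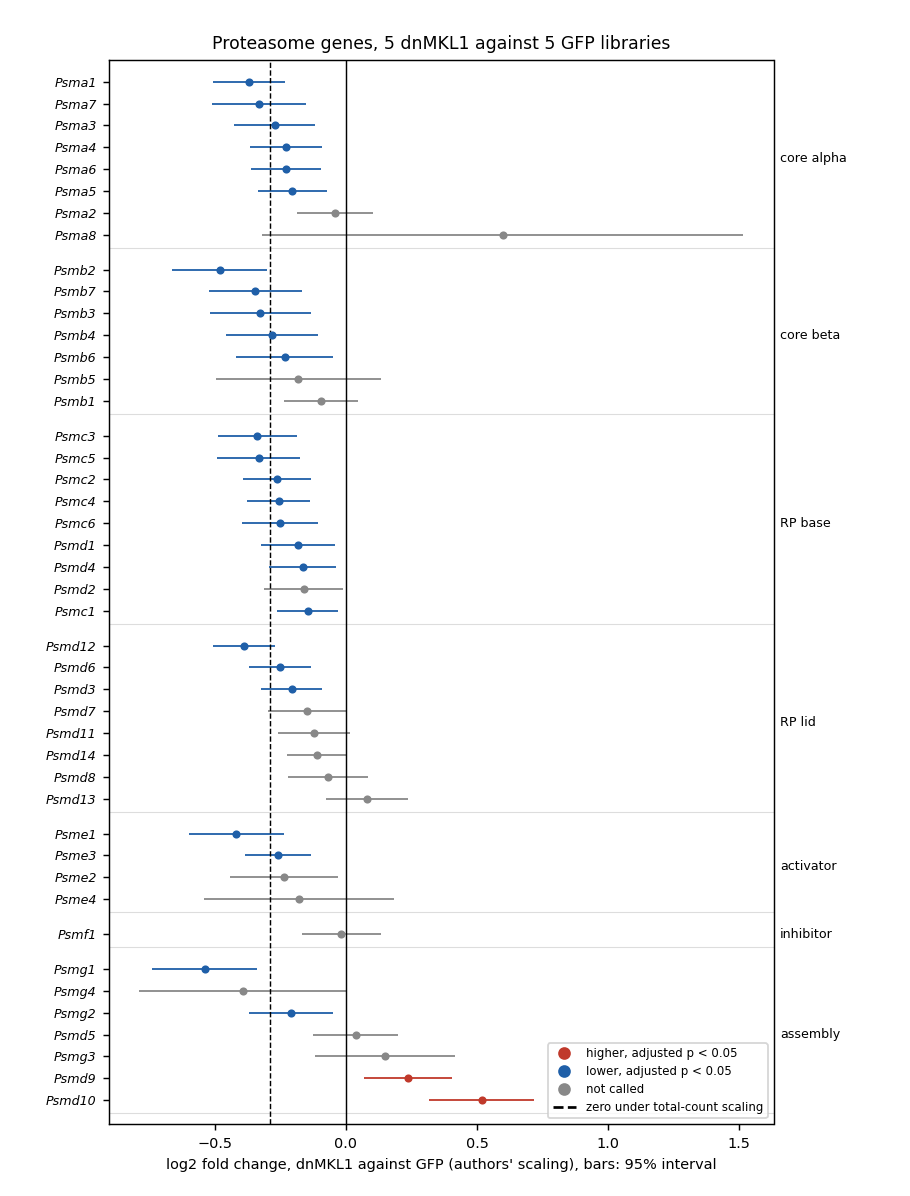
The x axis gives the log2 fold change of dnMKL1 against GFP in the authors' deposited table and the y axis the genes by class (RP, regulatory particle). Points are estimates with 95% intervals, coloured by call, for 5 libraries in each group, Psmb11 is left out, and the dashed line at -0.29 is where 0 lies if both groups are scaled to the same total. Core and regulatory particle genes, Psma8 apart, lie between -0.48 and 0.081, many of them right of the dashed line, and the assembly genes spread from -0.54 to 0.52.

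The regulatory particle was lower too with the authors' size factors, by a median of -0.18 over 17 genes (0.11 with equal totals), with 11 called lower and 0 higher by the Wald test, and 12 at an unadjusted p-value under 0.05. Its base and lid differed in their counts: 8 of 9 base genes and 3 of 8 lid genes were called lower, with medians of -0.25 and -0.13. That difference was not tested. All 17 genes had base means from 1000 to 10000, where 40.1% of all genes were called lower with a median of -0.13. The lid was thus near the background of its level.

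The base contains 6 ATPases that unfold substrates, and all 6 were called lower. Psmc3 fell from 3963 to 3137 normalized counts (log2 fold change -0.34, SE 0.08, adjusted p = 1.0e-04), and Psmc5 from 2347 to 1865 (-0.33, SE 0.08, adjusted p = 2.8e-04). Psmc2 fell from 2091 to 1741 (-0.26, SE 0.07, adjusted p = 4.1e-04) and Psmc4 from 1782 to 1493 (-0.26, SE 0.06, adjusted p = 2.1e-04). The smaller changes were -0.25 for Psmc6 and -0.15 for Psmc1. With equal totals Psmc1 turned to 0.14 and was called higher, and none of the other ATPases was called. Exons of Psmc3 share 8.25% of their bases with Slc39a13 on the opposite strand, and whether the counting used strand is not given in the sources used here. Of the other base genes, the ubiquitin receptor Psmd4 (-0.16) and the scaffold subunit Psmd1 (-0.18) were called. The second scaffold subunit, Psmd2, was not, at -0.16 (SE 0.08, adjusted p = 0.088), although its estimate equals that of Psmd4 to 2 decimals. The base genes ran only from -0.34 to -0.15, the narrowest range among the classes with more than 4 genes.

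The lid was less even. Psmd12, a scaffold subunit of the lid, fell from 2669 to 2038 normalized counts (log2 fold change -0.39, SE 0.06, adjusted p = 2.1e-09), or 23.6% less. Psmd6 fell from 1972 to 1656 (-0.25, SE 0.06, adjusted p = 2.0e-04) and Psmd3 from 2828 to 2451 (-0.21, SE 0.06, adjusted p = 0.0025). The deubiquitinating enzyme Psmd14, which removes ubiquitin chains before degradation, was not called at -0.11 (95% interval -0.22 to 0.0040). Its partner Psmd7 (-0.15), Psmd11 (-0.12) and Psmd8 (-0.069) were not called either. Among the lid genes of the symbol rule, Psmd13 had the only positive value, 0.081 (interval -0.074 to 0.24). Of its exon bases, 10.1% overlap Sirt3 on the opposite strand. The rule leaves out the small lid subunit Shfm1, which was called higher at 0.44 (below). Psmd12 and Psmd13 were thus 0.47 apart on the log2 scale, a gap that does not depend on how the libraries are scaled.

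Level matters for these counts, because abundant genes were more often lower in this comparison. Of 1986 genes with a base mean from 1000 to 10000, 40.1% were called lower and 14.4% higher, with a median of -0.13. In the same range lay 29 core and regulatory particle genes, of which 21 (72.4%) were called lower and 0 higher, with a median of -0.23. The lid alone, with 37.5% called lower and a median of -0.13, was near the values of all genes in this range. Most members had SEs below those of other genes of their level: the median ratio of a member's SE to that of the 200 genes nearest in base mean was 0.802. A smaller SE lets smaller changes be called, and how much of the gap between 72.4% and 40.1% this makes was not tested.

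**Figure D2:**
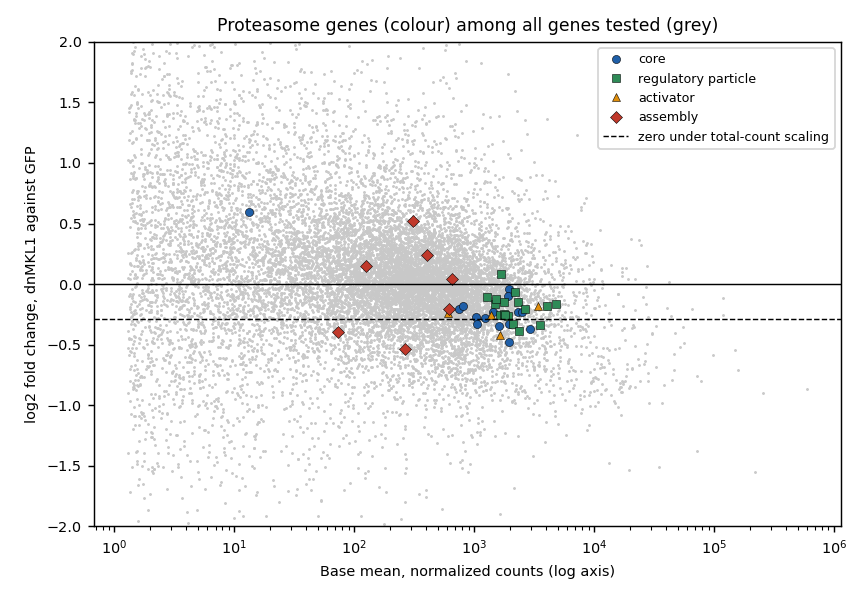
The x axis is the base mean in normalized counts on a log axis and the y axis the log2 fold change of dnMKL1 against GFP. Each grey point is 1 of 14056 genes tested, 295 of which lie outside the range drawn, and coloured points are proteasome genes with an adjusted p-value. Core (circles) and regulatory particle genes (squares) cluster below 0, mostly at base means above 1000, and assembly genes (diamonds) lie at lower levels on both sides of 0.

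The direction of these small changes depends on whether the authors' size factors or equal totals are used. Over all genes the implied means added up to 13330300 normalized counts with GFP and 10915800 with dnMKL1, a log2 difference of -0.29. This difference was uneven across levels. The 8 cardiomyocyte markers alone went from 1433100 to 774005, whereas all genes at base means from 100 to 1000 went from 2591390 to 2570770. Median-centring, which sets the median gene to 0, moved each log2 fold change by only -0.0041. With both groups scaled to the same total, every log2 fold change rises by 0.29. The core median became 0.056 and that of the regulatory particle 0.11, with 2 and 5 genes called higher and 0 lower in each. Of all 45 genes 12 were then called higher and 1 lower, beside 40.4% and 6.6% of all genes tested. Of the 26 genes called lower before, Psmg1 was still called lower, Psmc1 was called higher and 24 were not called. The 12 higher calls were Psmd9 and Psmd10, called higher under both scalings, Psmc1, and 9 genes not called before. Core and regulatory particle transcripts were thus lower relative to the authors' size factors, with medians at or slightly above 0 as a share of all counts. With equal totals the median of all genes tested was 0.31, and 0.16 for all genes at base means from 1000 to 10000. The 32 members in that range had a median of 0.046, below both. Of these members 21.9% were called higher and 0% lower, beside 43.6% and 15.0% of all genes in the range. Differences between members stay the same under either scaling.

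Activators had a median of -0.25 (0.041 with equal totals), with 2 of 4 genes called lower, 0 called higher and 3 at an unadjusted p-value under 0.05. Of all genes at base means from 1000 to 10000, where Psme1, Psme3 and Psme4 lay, 40.1% were called lower. From 100 to 1000, where Psme2 lay, it was 19.3%. Whether 2 of 4 differs from these shares was not tested. Psme1 and Psme2 encode the subunits of a cytosolic activator that interferon gamma induces and that serves antigen processing. Psme1 fell from 1886 to 1412 normalized counts (log2 fold change -0.42, SE 0.09, adjusted p = 5.2e-05), or 25.1% less. Psme2 had implied means of 661 and 562 and a log2 fold change of -0.24 (SE 0.10, adjusted p = 0.066). Its estimate has the sign of its partner's, but it was not called. Psme3, the nuclear relative of both, fell from 1514 to 1266 (-0.26, SE 0.06, adjusted p = 3.8e-04). Psme4, the large nuclear activator linked to histone degradation, had implied means of 3599 and 3177 and was not called (-0.18, SE 0.18, adjusted p = 0.51). The inhibitor gene Psmf1 was not called, with 502 and 496 normalized counts, -0.017 on the log2 scale (SE 0.08, adjusted p = 0.91) and an interval from -0.17 to 0.13.

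Interferon response genes, which share inducers with Psme1 and Psme2, were mostly called higher. Of 17 such genes with an adjusted p-value 12 were called higher and 0 lower by the Wald test, with 14 at an unadjusted p-value under 0.05, and the median over 18 was 0.86. Among all genes tested 16.6% were called higher and 17.4% lower. Of the 3 immunoproteasome subunits, which replace the catalytic core subunits after interferon, 1 was called lower and 0 higher, with 1 at an unadjusted p-value under 0.05. Psmb10 was called lower at -0.50 (SE 0.19, adjusted p = 0.024), a call lost with equal totals (-0.21), while Psmb8 (-0.073, SE 0.43) and Psmb9 (0.81, SE 0.53) were not called at base means of 24.7 and 12.1.

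Assembly genes had calls in both directions. Of 7 genes, 2 were called higher, 2 lower and 3 were not called, and their median was 0.038. Each direction thus held 28.6% of the 7 genes. Of 6515 genes with a base mean from 100 to 1000, where all but Psmg4 lay, 20% were called higher and 19.3% lower. Whether the shares of so few genes differ from this background was not tested. The summed implied mean of the assembly genes was 2448 normalized counts with GFP and 2447 with dnMKL1, although single members moved by up to 43.2%.

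Psmg1 and Psmg2 encode a pair of chaperones that starts the alpha ring of the core. Psmg1 fell from 317 to 218 normalized counts (log2 fold change -0.54, SE 0.10, adjusted p = 1.5e-06), or 31.1% less. Psmg2 fell from 659 to 571 (-0.21, SE 0.08, adjusted p = 0.033). The second chaperone pair, Psmg3 and Psmg4, had base means of 126 and 73.4. Psmg4 had a log2 fold change of -0.39 with an interval that ends just below 0 (SE 0.20, adjusted p = 0.12), and Psmg3 one of 0.15 (SE 0.14, adjusted p = 0.45).

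Psmd5, Psmd9 and Psmd10 encode chaperones that hold the ATPases of the base until they are joined. Psmd10, also known as gankyrin and as a binding partner of the MDM2 ubiquitin ligase, rose from 253 to 363 normalized counts (log2 fold change 0.52, SE 0.10, adjusted p = 4.0e-06), or 43.2% more. Psmd9 rose from 374 to 440 (0.24, SE 0.09, adjusted p = 0.021). However, 25.5% of the exon bases of Psmd9 are shared with the antisense gene Gm26745. Psmd5 was not called (0.038, interval -0.12 to 0.20). The base chaperones thus had positive estimates, while all 6 ATPases were called lower with the authors' size factors. With equal totals none of the ATPases was called lower, and Psmc1 was called higher. Under total-count scaling Psmd10 (0.81) and Psmd9 (0.52) were still called higher, and Psmg1 (-0.25) was the only member called lower. Psmd10 and Psmg1 stood 1.06 apart on the log2 scale, a ratio of 2.08 that does not depend on scaling.

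Psmd10 and Psmg1 are the members called in the same direction under both scalings with the largest rise and the largest fall, and the 120 bases before their RefSeq starts are given for that reason. They lie on the minus strand of GRCm38.p6, at chrX:140956712-140956831 (Psmd10) and chr16:95990961-95991080 (Psmg1). Capitals mark matches to CCAAT and the GC box on either strand. Psmd10 has 1 GC box here on its own strand and 2 CCAAT matches on the other strand (as ATTGG), and Psmg1 has neither in this stretch. The GENCODE gene of Psmd10, chrX:140948429-140956728, begins inside the stretch, and that of Psmg1, chr16:95979933-95990960, next to it.
Psmd10: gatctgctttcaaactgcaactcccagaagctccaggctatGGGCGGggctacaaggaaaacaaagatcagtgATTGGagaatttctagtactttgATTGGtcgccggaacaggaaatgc
Psmg1: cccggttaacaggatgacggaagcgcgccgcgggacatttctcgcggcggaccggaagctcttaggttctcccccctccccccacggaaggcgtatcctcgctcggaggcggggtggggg

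Median levels per transcript length were lower for activators and assembly genes than for the core and regulatory particle, which were close to each other. The base mean was divided by the length of the longest GENCODE transcript of each gene, leaving out genes whose base mean was under 100. The median was 1013 normalized counts per kb for 14 core genes, 1111 for 17 regulatory particle genes, 579 for 4 activators and 185 for 6 assembly genes. Core genes ran from 367 (Psma3) to 2612 (Psmb6) per kb and regulatory particle genes from 509 (Psmd11) to 1952 (Psmc3). With the length of the principal transcript in its place, the medians were 1305, 1229, 579 and 186. Single values depend more on the transcript chosen: Psmb7 went from 572 to 1404 per kb. The 45 genes together made up 0.598% of all normalized counts.

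**Figure D3:**
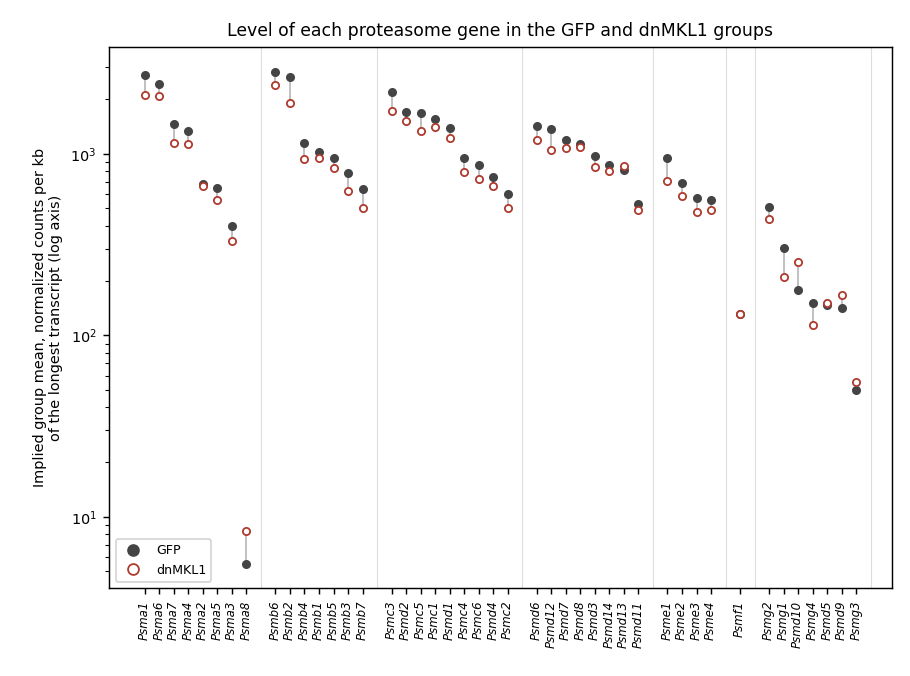
The y axis gives the implied group mean in normalized counts per kb of the longest transcript, on a log axis, and the x axis the genes by class (core alpha, core beta, base, lid, activators, inhibitor, assembly). Filled points are the GFP group and open points the dnMKL1 group, each a mean implied for 5 libraries and drawn without error bars, Psmb11 is left out; the intervals of the changes are in the plot of log2 fold changes by class. Core and regulatory particle genes mostly lie near 1000, Psmf1 and most assembly genes near or under 300, and the open point is above the filled one for Psmd10, Psmd9, Psmd5, Psmg3, Psmd13 and Psma8.

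The spread between libraries can be read from the SEs. With the recovered size factors and a negative binomial model, the SE of each member at a base mean of 1000 or more corresponds to a coefficient of variation between libraries of 5.68% to 20.1%, with a median of 7.74%. Psme4 had the highest value, 20.1%, and an SE 2.03 times that of genes of its level. Psmb5, at a base mean of 805, had 17.2% and a ratio of 1.66. With such SEs most of the changes called in other members would not have been called.

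The wider pathway was described with lists of genes that work with the proteasome. Of 11 proteasome-associated genes with values, 4 were called lower and 1 higher, with a median of -0.21. These genes lay in both level ranges given above, and their share of lower calls, 36.4%, lies between the shares of all genes there, 19.3% and 40.1%, so it does not stand out from the background. The ubiquitin-removing enzymes Usp14 and Uchl5 bind the regulatory particle. Usp14 fell from 1990 to 1679 normalized counts (log2 fold change -0.25, SE 0.07, adjusted p = 0.0013) and Uchl5 from 528 to 439 (-0.27, SE 0.07, adjusted p = 3.8e-04). Txnl1, a thioredoxin-like protein of the regulatory particle, fell from 1301 to 1085 (-0.26, SE 0.08, adjusted p = 0.0026), and Zfand5 was called at -0.21. Shfm1, also called Sem1, encodes a small lid subunit and rose from 1108 to 1503 (0.44, SE 0.09, adjusted p = 1.9e-05), which put it 0.83 above Psmd12. Pomp, which matures the core, was not called at -0.045 (SE 0.08, adjusted p = 0.74), nor was the ubiquitin receptor gene Adrm1 at -0.16 (SE 0.08, adjusted p = 0.11). With equal totals Usp14, Uchl5, Txnl1 and Zfand5 turned to values from 0.021 to 0.080 and were not called, while Shfm1 was at 0.73 and still called higher.

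Genes that regulate proteasome transcription were mostly not called, like 9264 of all 14056 genes tested. Of all genes tested, 16.6% were called higher and 17.4% lower. Nfe2l1 was abundant, at a base mean of 8062, and had a log2 fold change of 0.026 with an interval from -0.15 to 0.20. Its processing enzymes Ddi2 (-0.13, SE 0.15) and Ngly1 (-0.017, SE 0.06) and the NF-Y genes were not called either. Among 12 such genes 1 was called higher and 0 lower by the Wald test, with 2 at an unadjusted p-value under 0.05. That gene was Mafk, a small MAF partner of Nfe2l1 and Nfe2l2, which rose from 543 to 850 normalized counts (0.65, SE 0.22, adjusted p = 0.014). Nfe2l2 had 0.38 (SE 0.19, adjusted p = 0.12). With equal totals Nfe2l1 (0.31), Nfe2l2 (0.67), Ngly1, Nfyc, Mafg, Maff and Foxo1 were also called higher, beside 40.4% of all genes tested.

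Genes that act before the proteasome were few in each list, and their counts are given beside the shares of all genes at base means from 100 to 1000 (19.3% lower, 20% higher) and from 1000 to 10000 (40.1% lower, 14.4% higher). Of 4 shuttle factors, which carry ubiquitinated proteins to it, 2 were called lower and 1 higher. Ubqln4 fell from 1428 to 1018 normalized counts (log2 fold change -0.49, SE 0.07, adjusted p = 9.1e-10). Rad23b fell from 644 to 476 (-0.43, SE 0.13, adjusted p = 0.0028), a call lost with equal totals (-0.15). Ubqln1, a relative of Ubqln4, rose from 2081 to 2329 (0.16, SE 0.07, adjusted p = 0.047), a call lost after median-centring or when all p-values were adjusted together. Of 5 genes for ubiquitin and its activating enzymes, 0 were called by the Wald test, with 1 at an unadjusted p-value under 0.05.

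Vcp, the ATPase that extracts proteins from complexes and membranes, was not called at -0.13 (SE 0.08, adjusted p = 0.22). Of 10 genes of Vcp and its cofactors 4 were called lower and 1 higher. The share of lower calls, 40%, lies between those of all genes in the level ranges these genes span, 19.3% and 40.1%. Faf1 fell from 1661 to 1163 normalized counts (log2 fold change -0.51, SE 0.08, adjusted p = 3.0e-10), while its relative Faf2 rose from 487 to 596 (0.29, SE 0.09, adjusted p = 0.0057). Ufd1l fell from 1045 to 856 (-0.29, SE 0.06, adjusted p = 2.4e-05) and Plaa from 1491 to 1260 (-0.24, SE 0.08, adjusted p = 0.0088). With equal totals Ufd1l (0.0016) and Plaa (0.044) were near 0 and not called, and Faf1 (-0.23) and Ubqln4 (-0.20) were still called lower.

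**Figure D4:**
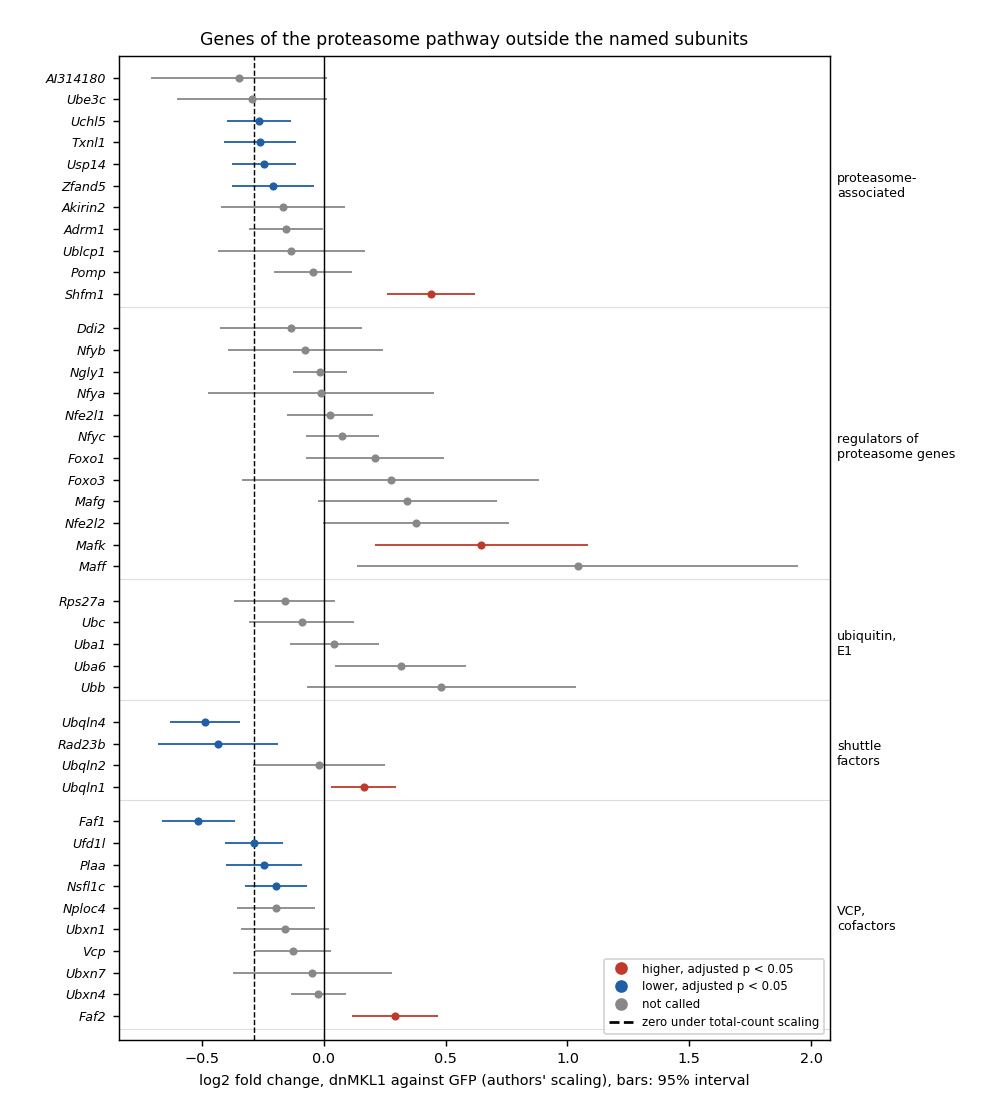
The x axis gives the log2 fold change of dnMKL1 against GFP in the authors' deposited table and the y axis genes of 5 lists that work with the proteasome. Points are estimates with 95% intervals for 5 libraries in each group, coloured by call, and the dashed line at -0.29 is where 0 lies under total-count scaling. Shfm1, Mafk, Ubqln1 and Faf2 are called higher, and Faf1 and Ubqln4 are the lowest called genes.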

How the data were processed

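Per the submitters' processing notes, reads were processed with CASAVA 1.8, aligned to mm10 with STAR 2.5.3a and counted by featureCounts (Subread 1.5.2). Annotation and strand use are not given in the sources used here. Per the file headers, the deposited columns are those that DESeq2 writes. Its base mean is a signal in counts divided by size factors, its fold change and SE are on the log2 scale, its Wald statistic is a score equal to their ratio, and its adjusted p-value covers 14056 genes, the lowest of them at a base mean of 1.31, per the file headers and recomputation. The direction was read from Mkl1.

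No values per library were at hand, so the deposited Wald test stands in place of a count test. Implied group means take the base mean as the average of 2 equal groups. Genes with a single read in all libraries gave the size factors, and from them library totals were estimated. The intervals are log2 fold change ± the normal quantile at 95% times the SE. Total-count scaling shifts each log2 fold change by 0.29, after which p-values were recomputed and adjusted over the same genes. Gene positions and lengths are from GENCODE on GRCm38 and promoters from RefSeq GRCm38.p6. Of 40 member promoters, 37 had their last 30 bases in a transcript of the gene, which checked their orientation. Analyses ran in Python 3.11.15 with SciPy 1.17.1 and were tested on simulated data.

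The members, classes and lists were chosen with earlier results of these data known. Named in full are up to 4 called genes per class or list by absolute change, all activators, the inhibitor and the catalytic subunits. Other members are named with fewer values, and some genes of the related lists are not reported here. Replicates are biological, per the labels. Alternatives were other thresholds, adjustments, filters, scalings, transcript lengths and promoter windows.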

Additional observations from a re-analysis of the deposited data

How the results depend on the processing

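No paired analysis was possible because the deposited table holds no values per library; for the same reason the fits without 1 library, with edgeR or DESeq2 or with a block on the replicate number were not run, and whether 1 library decides a value is unknown. The 28 proteasome genes called became 21 and 30 at adjusted p-values under 0.01 and 0.1, 26 when all p-values were adjusted together, and 28 both for genes at base means of 100 or more and after median-centring. Requiring an absolute log2 fold change of 0.5 left 2, Psmd10 and Psmg1, and 2735 of the 4792 genes called in all, since fewer genes can pass. Total-count scaling gave 13 calls (12 higher, 1 lower), of which 3 (Psmd9, Psmd10 and Psmg1) were calls in the same direction before, 1 (Psmc1) was a lower call before and 9 were not called before. The medians of the core, the regulatory particle and the activators reversed to 0.056, 0.11 and 0.041, and that of the assembly genes moved to 0.33. Under the same scaling 19 of 38 genes named in full reversed, to 0.017 (Psma3), 0.059 (Psma4), 0.0056 (Psmb4), 0.11 (Psmb5), 0.054 (Psmb6), 0.024 (Psmc2), 0.032 (Psmc4), 0.082 (Psmd3), 0.036 (Psmd6), 0.052 (Psme2), 0.030 (Psme3), 0.11 (Psme4), 0.27 (Psmf1), 0.080 (Psmg2), 0.044 (Plaa), 0.027 (Txnl1), 0.021 (Uchl5), 0.0016 (Ufd1l) and 0.043 (Usp14). Of the 38, 25 were no longer called (15 of them among those reversed), 9 were called in the same direction and Psmf1 became called higher. In the 150 bases of each promoter window at the gene's start the CArG match of Psma6 was absent (0 genes). The principal transcript length was chosen after seeing the data.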

Other observations

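Psme4 was not the only large gene of the pathway with a wide error. AI314180 (also called Ecpas), which encodes a proteasome adaptor, had a log2 fold change of -0.35 (SE 0.18, adjusted p = 0.14) at a base mean of 2554, and its SE was 1.87 times that of the 200 genes nearest in base mean. Ube3c, a ubiquitin ligase that works at the proteasome, had -0.30 (SE 0.16, adjusted p = 0.14) and a ratio of 1.62. Uchl5 and Ufd1l, by contrast, had ratios of 0.634 and 0.638. Mafk was called with a ratio of 2.26. What these genes share was not tested.

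Psmc3ip, which the symbol rule caught and which is not a proteasome subunit, had a log2 fold change of -0.30 with an SE of 0.46 (adjusted p = 0.68). Its exons share 21.2% of their bases with Mlx on the opposite strand.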
